A study of Mus musculus with 6 samples.

Results

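The NF-kappaB family was examined in mouse thymoma cells of the 427 line (427 cells) and in a derivative with a knockdown of signal peptide peptidase-like 2b (SP2bKD). The 10 genes looked for were the 5 subunits Nfkb1, Nfkb2, Rel, Rela and Relb and the 5 inhibitors Nfkbia, Nfkbib, Nfkbie, Nfkbiz and Tnfaip3. They were taken by gene symbol, with earlier results of these data known. A row was found for 9 of the 10 genes among 25001 loci, of which 22601 carry a symbol, and no member had more than 1 row. Nfkbiz had no row under its symbol, and the locus that covers it is described separately.

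RNA was sequenced in 6 libraries, 1 for each condition, so no difference has a replicate check and no p-value was computed. The 427 cells carried the empty pSUPER vector stably and were given DMSO or 1 µM PMA, a phorbol ester that activates protein kinase C, for 2 h after 2 h without serum. SP2bKD cells, a single clone labelled with an siRNA against SPPL2b and described in the study's methods as a stable shRNA line in the same vector, were treated in the same way. The remaining libraries came from the SP2bKD-10 clone transfected with GFP vector alone, or with GFP vector and Flag-tagged EICD, the intracellular domain of the membrane protease epithin/PRSS14, and sorted for GFP by flow cytometry. A treatment text in the labels mentions PMA for the knockdown cells in general, while the entry of each sample gives DMSO or PMA, and the latter was used.

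NF-kappaB dimers are held in the cytoplasm by IkB proteins until the IkB kinases mark these for degradation, after which the dimers enter the nucleus and bind kappaB sites in DNA. Many of the genes they switch on encode their own inhibitors and subunits, so that the pathway is known for feedback at the level of transcription. In thymic epithelium the non-canonical arm of the pathway, which works through Relb and the product of Nfkb2, is known for its role in the maturation of medullary cells.

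Between 10555 and 10873 loci reached 1 FPKM (fragments per kilobase of exon, scaled to the fragments of the library) in a library, and the estimated depth ran from 26200000 to 30900000 fragments. The epithelial markers were all at 1 FPKM or more, with a sum over 8 genes of 6349 to 15095 FPKM. The sum of 8 T lymphocyte markers did not pass 0.340 FPKM, and 3 of them (Cd3e, Cd4 and Thy1) were at 0 throughout. Of 6 macrophage markers, 3 were at 1 FPKM or more with a sum of 7.04 to 12.2 FPKM, while Adgre1 was at 0 throughout. The sums of the fibroblast and endothelial markers stayed at or below 0.501 and 0.431 FPKM, and 10 interferon-stimulated genes summed to at most 24.2 FPKM. The targeted gene Sppl2b went against the label, with 9.90 FPKM in 427 cells with DMSO and 13.4 in the library labelled SP2bKD with DMSO, and 6.86 and 9.37 with PMA. An overlap of 2204 bases joins its locus to Lsm7 of the other strand, which stood at 69.5 and 33.6 FPKM with DMSO and at 74.3 and 60.8 FPKM with PMA in the same order. The FPKM values, from 1 library per condition, therefore showed no loss of Sppl2b in the libraries labelled SP2bKD. The study itself tested its knockdown clones for SPPL2b mRNA by PCR.

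The level of a member differed by up to 6.48-fold between libraries, and the members were reached by 330 to 13536 estimated fragments. Nfkb1 was the highest of the 9 members in both 427 libraries, Rela in SP2bKD cells with DMSO, Nfkb2 in SP2bKD cells with PMA and Nfkbia in both GFP-sorted libraries. Relb and Rel held the lowest ranks in each DMSO, PMA and GFP library, while in the EICD library the lowest were Rel and Nfkbib. Some neighbours in this order lay very close, such as Nfkbia and Nfkbib at a ratio of 1.01 in 427 cells with DMSO. In bulk RNA of this kind, fewer cells that express a gene and less RNA per cell cannot be told apart.

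**Figure D1:**
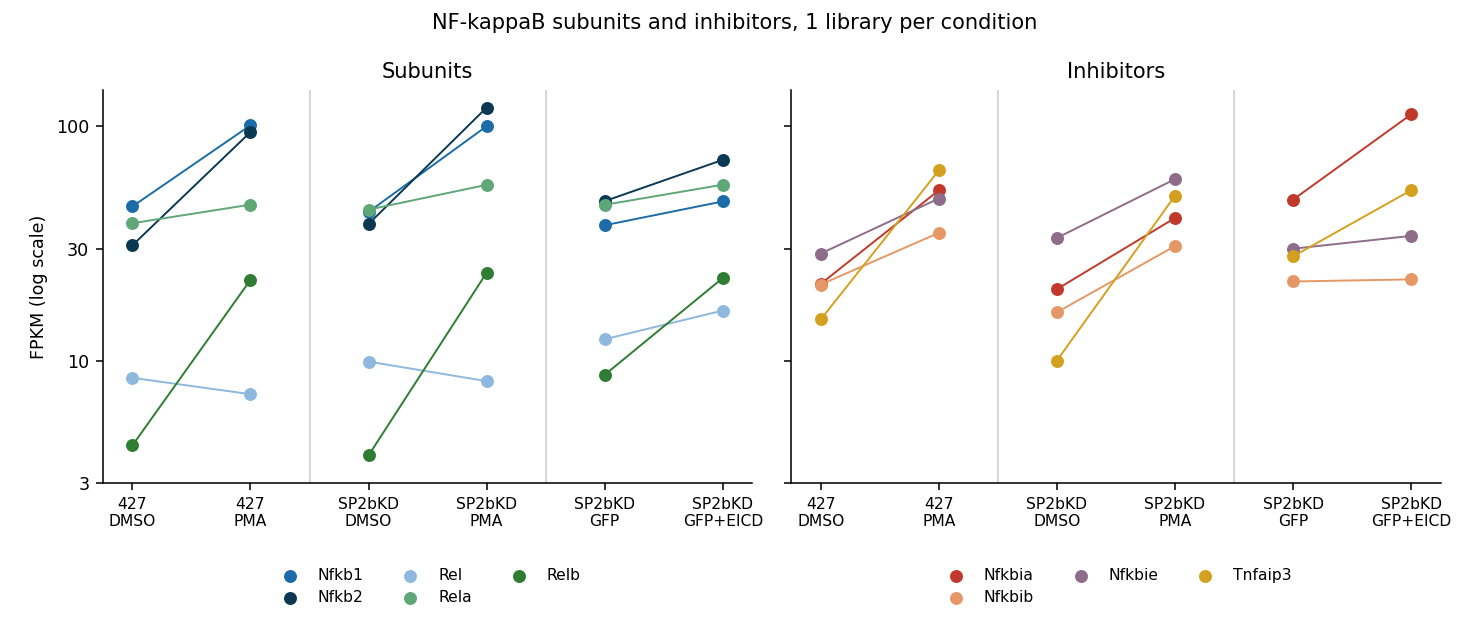
FPKM on a log axis for 5 subunits (left) and 4 inhibitors (right) in 6 libraries, 1 point per library, with lines joining the libraries compared within a line or a transfection. Relb runs from 4.34 to 22.1 FPKM with PMA in 427 cells, whereas Rela stays between 38.5 and 56.3 FPKM throughout.

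Stretches at the start sites of some of the members that differed in their PMA values are shown first, because kappaB sites near the start are one known route of feedback onto this family. They were taken from RefSeq start sites on GRCm38.p6, which gave 10 windows of 300 bases for 7 members, with none for Nfkb1, Relb and Nfkbiz. The 10-letter kappaB consensus was searched on both strands, and 5 of the 7 members with a window held it (Nfkb2, Rel, Nfkbia, Nfkbie and Tnfaip3), against 9.55% of 27025 genes with a window and 8.46% of 32851 windows. Rela and Nfkbib had no match. Capitals mark a kappaB match in the stretches below, which are written 5′ to 3′ on the strand of the gene and are cut where an annotated exon begins, or to 30 bases where the match lies in or next to one.

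Nfkbia, chr12:55492648-55492897, minus strand: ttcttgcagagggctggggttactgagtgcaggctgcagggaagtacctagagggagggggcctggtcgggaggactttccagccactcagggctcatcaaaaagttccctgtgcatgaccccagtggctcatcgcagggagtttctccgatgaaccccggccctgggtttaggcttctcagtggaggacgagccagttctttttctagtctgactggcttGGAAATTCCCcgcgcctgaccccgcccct
Nfkb2, chr19:46304689-46304718, plus strand: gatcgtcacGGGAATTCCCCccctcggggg
Nfkb2, chr19:46304716-46304745, plus strand: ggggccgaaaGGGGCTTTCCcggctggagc
Nfkb2, before the second start, chr19:46305449-46305478, plus strand: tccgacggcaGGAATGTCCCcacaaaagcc
Nfkb2, after the second start, chr19:46305695-46305724, plus strand: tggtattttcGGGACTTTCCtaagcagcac
Tnfaip3, chr10:19015516-19015545, minus strand: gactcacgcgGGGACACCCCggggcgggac
Tnfaip3, chr10:19015403-19015432, minus strand: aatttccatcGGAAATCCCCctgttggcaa
Rel, chr11:23770971-23771219, minus strand: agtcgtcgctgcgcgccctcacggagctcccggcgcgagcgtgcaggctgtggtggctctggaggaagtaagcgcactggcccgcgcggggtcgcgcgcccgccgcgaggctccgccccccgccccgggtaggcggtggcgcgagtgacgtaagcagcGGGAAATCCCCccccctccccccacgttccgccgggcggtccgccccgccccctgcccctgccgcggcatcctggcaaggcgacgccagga
Rela, chr19:5637291-5637482, plus strand: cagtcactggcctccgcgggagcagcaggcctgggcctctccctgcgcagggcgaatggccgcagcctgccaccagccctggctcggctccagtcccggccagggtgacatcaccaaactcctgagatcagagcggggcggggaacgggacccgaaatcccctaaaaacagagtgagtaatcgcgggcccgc

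The match of Nfkbia began 29 bases before the start site. The run of 11 capitals in the first Nfkb2 stretch held overlapping matches on both strands, which began 39 and 38 bases before the start, and another began 11 bases before it. At the second start of Nfkb2 a match began 236 bases before the start, and the other lay after it, from base 11 of the transcript. In Tnfaip3 the matches began 125 and 12 bases before the start of the longer gene, and the window of its other start had none. Rel held an overlapping pair, at 92 and 91 bases before its start. Nfkbie, whose stretch is not shown, held a match that began 106 bases before its start. The AP-1 letters TGANTCA, present in 7.81% of all windows, were found 136 bases before the Tnfaip3 start, 156 bases before that of Nfkbie and 210 bases before the second Nfkb2 start. The CRE letters TGACGTCA, present in 1.79% of windows, were in none of the 10 windows. These matches are descriptions of letters in a window and not of occupied sites.

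PMA was the first comparison, since it induces shedding of epithin/PRSS14 and with it the release of EICD. In 427 cells 5 of 9 members (Nfkb1, Nfkb2, Relb, Nfkbia and Tnfaip3) were more than 2-fold higher with PMA, against 3.91% of 10643 loci with a symbol, and none was more than 2-fold lower, against 4.67%. In SP2bKD cells the count was also 5 of 9, made up of these same genes, against 3.51% of 10624 loci that were higher, and it was 0 against 5.69% that were lower. The median log2 change of the members was 1.15 in 427 cells and 1.01 in SP2bKD cells, and that of all loci was -0.12 and -0.15. Rel was the only member below 0, in both lines.

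Relb (chromosome 7, 19606217 to 19629438 on GRCm38), the subunit that pairs with the product of Nfkb2 in the non-canonical arm, had the largest change of the subunits. Its FPKM was 4.34 with DMSO and 22.1 with PMA in 427 cells, and 3.93 and 23.7 in SP2bKD cells. These are 5.08-fold and 6.01-fold higher levels, with log2 changes of 2.34 (95% counting interval 2.19 to 2.51) and 2.59 (2.42 to 2.76). The intervals here and below were computed on estimated fragments and cover counting error only. Those of a single comparison are exact Clopper-Pearson intervals. Those of the difference of the PMA changes between the lines use a normal approximation. Both PMA libraries lay far above both DMSO libraries, and in 427 cells 99.2% of loci had a lower log2 change than Relb.

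Nfkb2 (chromosome 19, 46304737 to 46312090), which encodes the p100 precursor of p52, an IkB-like protein until it is processed, stood at 31.0 FPKM with DMSO and 94.5 with PMA in 427 cells. In SP2bKD cells it stood at 38.2 and 120.1 FPKM. The log2 changes were 1.61 (1.55 to 1.66) and 1.65 (1.60 to 1.70), about 3.04-fold and 3.14-fold. Nfkb1 (chromosome 3, 135584655 to 135691634), which encodes the p105 precursor of p50, had 45.5 and 101 FPKM without and with PMA in 427 cells, and 43.1 and 100.0 FPKM in the SP2bKD pair, log2 changes of 1.15 (1.10 to 1.20) and 1.21 (1.17 to 1.26), of which the first was 0.90 with libraries scaled to equal FPKM sums. These precursor genes together made up a larger part of the subunit RNA with PMA than with DMSO.

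Rela (chromosome 19, 5637483 to 5648130), the main transactivating subunit of the canonical dimer, had 38.5 and 46.3 FPKM in 427 cells and 44.0 and 56.2 FPKM in SP2bKD cells, a log2 change of 0.26 (0.19 to 0.34) and 0.35 (0.28 to 0.42). Its range over the 6 libraries was 1.46-fold, the narrowest of the 9 members. Rel (chromosome 11, 23736847 to 23771040), which encodes c-Rel, a subunit best known from lymphoid cells, had 8.43 and 7.18 FPKM in 427 cells and 9.89 and 8.16 FPKM in SP2bKD cells. Its log2 changes were -0.23 (-0.33 to -0.13) and -0.28 (-0.37 to -0.18), both smaller in size than 2-fold. The kappaB match before the Rel start was thus found next to a gene that was not higher with PMA, and Rela, without a match, was 1.20-fold and 1.28-fold higher.

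Among the inhibitors, Tnfaip3 (chromosome 10, 19000910 to 19015657), which encodes the ubiquitin-editing enzyme A20, had the largest change. It stood at 15.0 FPKM with DMSO and 64.7 with PMA in 427 cells, and at 9.99 and 50.4 FPKM in SP2bKD cells. The log2 changes were 2.11 (2.05 to 2.17) and 2.33 (2.26 to 2.41), or 4.32-fold and 5.04-fold. Nfkbia (chromosome 12, 55488598 to 55492647), which encodes IkB alpha, known for its rapid resynthesis, had 21.2 and 53.3 FPKM in 427 cells and 20.2 and 40.6 FPKM in SP2bKD cells. Its log2 changes of 1.33 (1.21 to 1.44) and 1.01 (0.89 to 1.13) put it past 2-fold in both lines, in SP2bKD cells by a margin smaller than the counting interval, and with 1 FPKM added to both libraries the latter value was 0.97.

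Nfkbib and Nfkbie, which encode IkB beta and IkB epsilon, were higher with PMA in both lines and did not reach 2-fold. Nfkbib had 21.1 and 35.1 FPKM in 427 cells and 16.1 and 30.8 FPKM in SP2bKD cells, log2 changes of 0.73 and 0.94, the latter 1.04 with libraries scaled to the same median. Nfkbie had 28.6 and 49.1 FPKM in 427 cells and 33.3 and 59.4 FPKM in SP2bKD cells, log2 changes of 0.78 and 0.83. The Nfkbie locus of the files (chromosome 17, 45555675 to 45567669) also covers Slc35b2 on the same strand, which has no row of its own, so its values are those of both genes. The Nfkbib locus (chromosome 7, 28758251 to 28773044) shares 6310 bases with Sirt2 on the opposite strand, and the library kit named in the labels is not stated to keep strand.

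**Figure D2:**
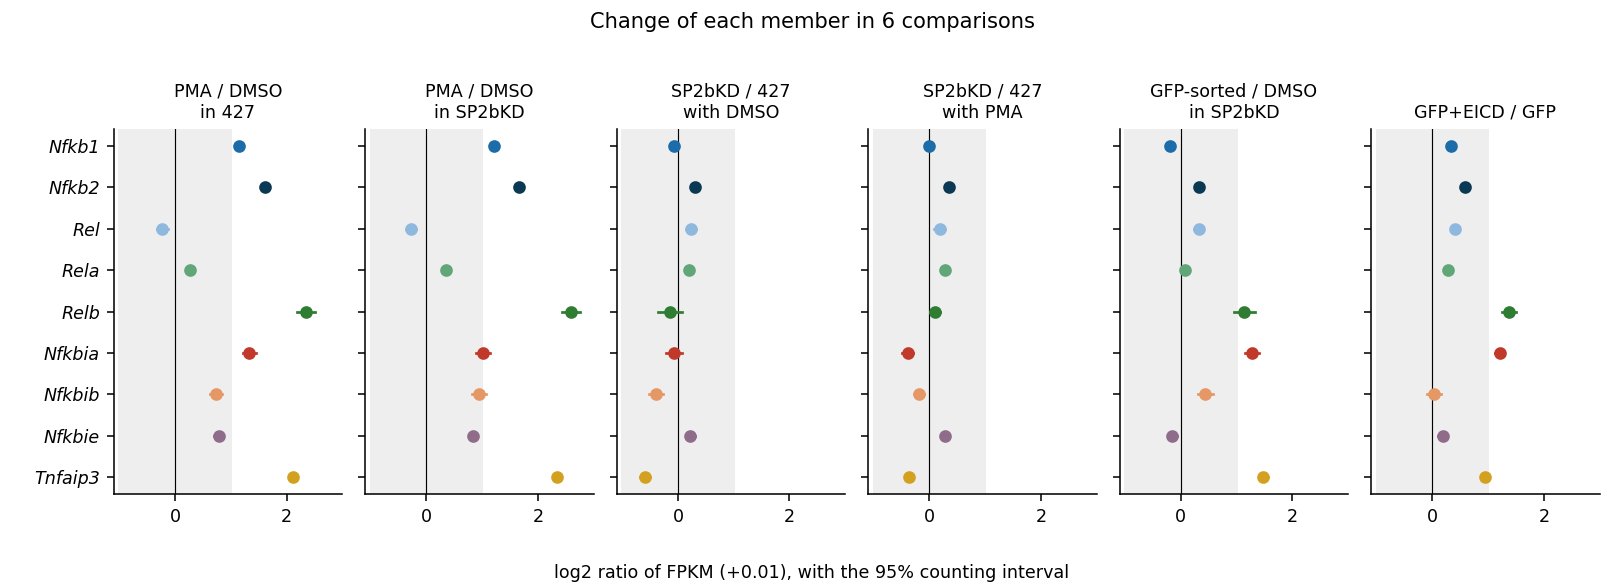
log2 ratio of FPKM for each of 9 members in 6 comparisons, with bars for the 95% counting interval and grey for changes under 2-fold. With PMA 5 members lie past 2-fold in both lines, and with EICD only Relb and Nfkbia do.

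The shift changed the make-up of the family RNA. The summed FPKM of the 5 subunits was 128 with DMSO and 271 with PMA in 427 cells, and 139 and 308 in SP2bKD cells. Nfkb2 made up 24.3% of this sum with DMSO and 34.9% with PMA in 427 cells, and Relb 3.40% and 8.15%, whereas Rela made up 30.2% and 17.1% and Rel 6.60% and 2.65%. SP2bKD cells moved in the same directions, with Nfkb2 at 27.5% and 39.0% and Rela at 31.6% and 18.2%. The level of Relb relative to Rela was 0.113 without and 0.477 with PMA in 427 cells, and 0.0893 and 0.421 in the SP2bKD pair. The summed FPKM of Nfkbia, Nfkbib and Nfkbie over that of the subunits was 0.555 with DMSO and 0.507 with PMA in 427 cells and 0.500 and 0.424 in SP2bKD cells. This sum takes in Slc35b2 through the Nfkbie locus, and the Nfkbib locus overlaps Sirt2.

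**Figure D3:**
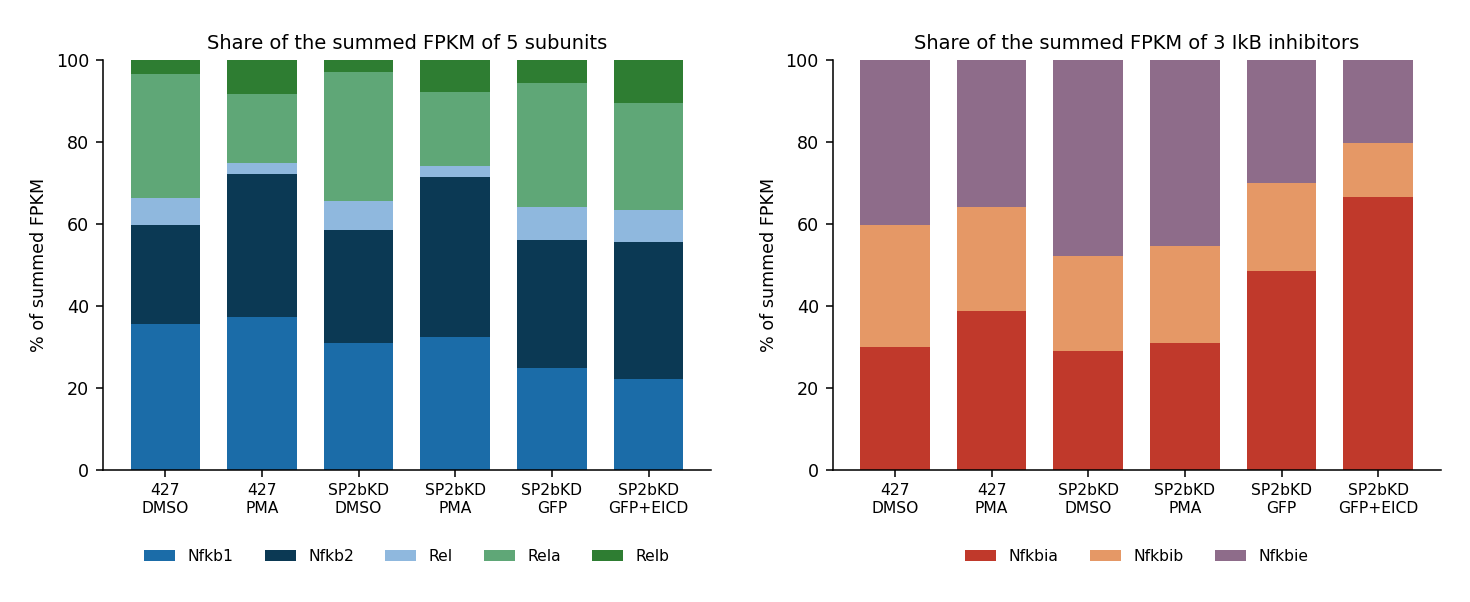
Stacked bars of each gene's share (%) of the summed FPKM of 5 subunits (left) and of Nfkbia, Nfkbib and Nfkbie (right) in each of 6 libraries. Rela takes 30.2% of subunit FPKM in 427 cells with DMSO and 17.1% with PMA, and Nfkbia takes 66.6% of inhibitor FPKM in the EICD library. The Nfkbie locus also covers Slc35b2, and the Nfkbib locus overlaps Sirt2.

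The study used the SP2bKD line as one with less SPPL2b, the protease that frees EICD, which the Sppl2b values above did not show. Its own evidence was real-time PCR of SPPL2b mRNA in the knockdown clones and less EICD from them after PMA. No member's PMA change differed more than 2-fold between the lines, against 3.27% of 10845 loci in either direction. The largest differences, as the log2 change in SP2bKD minus that in 427 cells, were -0.32 for Nfkbia (counting interval -0.49 to -0.15), 0.24 for Relb (0.01 to 0.47), 0.22 for Tnfaip3 (0.13 to 0.32) and 0.21 for Nfkbib (0.05 to 0.37). For Nfkb1, Nfkb2, Rel, Rela and Nfkbie the difference ran from -0.05 to 0.09, and the sign for Rel was opposite when libraries were scaled to equal upper quartiles or sums. With equal sums, which moved the median of all loci to 0.27, the difference was -0.04 for Nfkbia, 0.53 for Relb, 0.50 for Tnfaip3 and 0.48 for Nfkbib, and it ran from 0.23 to 0.37 for the other 5. Nfkbia had close levels with DMSO in the lines, 21.2 and 20.2 FPKM, and levels of 53.3 and 40.6 FPKM with PMA. With no replicates, these differences describe 4 libraries.

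**Figure D4:**
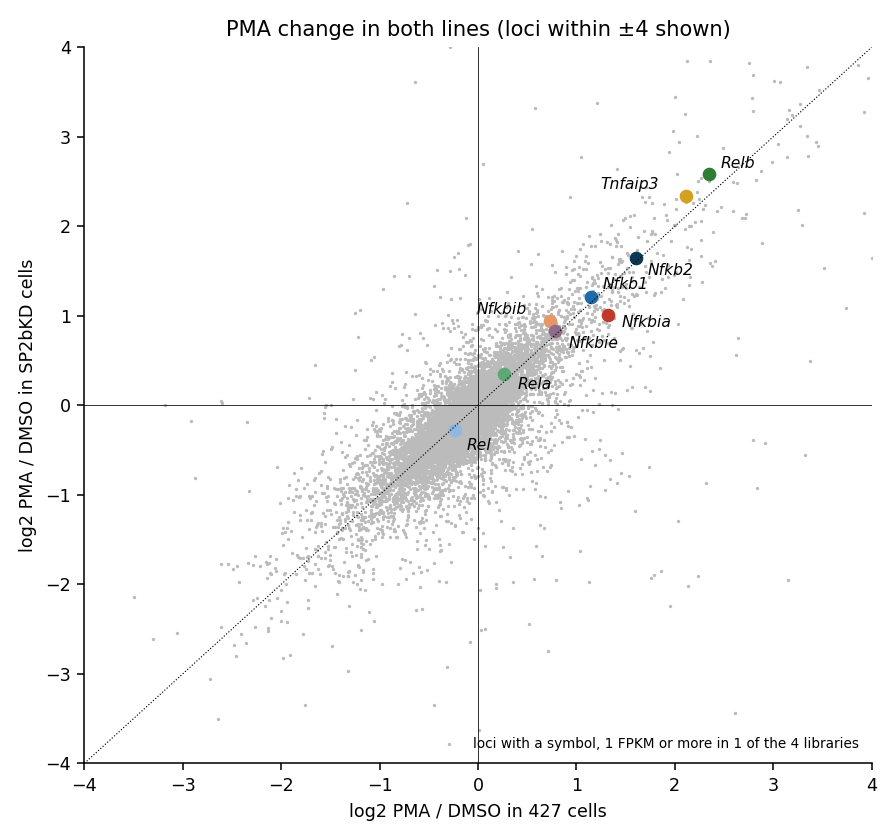
log2 PMA over DMSO in 427 cells (x axis) and in SP2bKD cells (y axis) for loci with a symbol (grey) and 9 members (coloured), with the line of equal change dotted. Most members lie close to that line, and Nfkbia lies below it with 1.33 against 1.01.

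The libraries labelled SP2bKD were then set against those of 427 cells. With DMSO 0 of 9 members were past 2-fold, against 5.87% of 10706 loci in either direction, and with PMA 0 of 9, against 4.93% of 10518 loci, so that the counts lie near these shares. Tnfaip3 had the largest difference with DMSO, a log2 ratio of SP2bKD to 427 of -0.58 (-0.67 to -0.49), and -0.36 with PMA, and 6.32% and 13.0% of loci had a lower ratio. Nfkbia stood at -0.08 with DMSO and -0.39 with PMA, while Nfkb2 stood at 0.30 and 0.35. The median over the members was -0.08 with DMSO and 0.10 with PMA, and over all loci 0.05 and 0.02. Scaled to equal FPKM sums all of these ratios were positive and the median of all loci was 1.01 and 1.26. Every comparison of SP2bKD with 427 sets a single clone against 427 cells with the empty vector, so the knockdown and the clone cannot be told apart.

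Genes that NF-kappaB is known to switch on were lower in the library labelled SP2bKD with PMA in many cases. Of 30 classical NF-kappaB target genes, 24 reached 1 FPKM in at least 1 of the PMA libraries, and 12 of these were more than 2-fold lower and 1 more than 2-fold higher in SP2bKD than in 427 cells with PMA, with a median log2 ratio of -0.92. Over all loci 2.75% were lower and 2.19% higher, with a median of 0.02. Scaled to equal FPKM sums, which gave all loci a median of 1.26, the median of the targets was 0.21, with 4 of 19 lower and 8 higher. Of all loci 0.172% were then lower and 83.6% higher. With DMSO, 6 of 18 were lower and 1 higher, against 2.76% and 3.11% of loci. Among these genes, Ccl2 and Csf3 (lower) met the minimum of 1 FPKM only in 427 cells, and Ccl5 (higher) only in SP2bKD cells. The median of the targets with DMSO was -0.44, or 0.38 with equal sums, where that of all loci was 1.01. The target list was written with earlier results of these data known, and its chemokine genes had been described from them.

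With PMA itself 17 of 24 targets were more than 2-fold higher in 427 cells and 16 of 24 in SP2bKD cells. Over all loci 3.91% and 3.51% were higher. None of the targets was more than 2-fold lower, against 4.67% and 5.69% of loci. The medians of the targets were 2.06 and 2.65, or 2.04 and 2.37 over the 23 genes above 0 in both libraries of a line. In 427 cells Vcam1, Cxcl2, Cxcl10, Ccl5, Ccl20, Csf2 and Nos2 met the minimum of 1 FPKM only with PMA. In SP2bKD cells this held for Vcam1, Cxcl2, Cxcl10, Ccl2, Ccl20, Csf2, Csf3 and Nos2. The largest changes belonged to Ccl20, a chemokine for cells with CCR6, to Csf2, which encodes GM-CSF, and to Cxcl2, a neutrophil chemokine. Csf2 was at 0.0578 and 11.1 FPKM in 427 cells, and it is listed at 0 with DMSO and stood at 2.67 FPKM with PMA in SP2bKD cells. Ccl20 is listed at 0 with DMSO in 427 cells and stood at 29.8 FPKM with PMA, against 0.0662 and 17.0 FPKM in SP2bKD cells. Cxcl2 was at 0.134 and 48.2 FPKM in 427 cells but at 0.0450 and 3.96 FPKM in SP2bKD cells.

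The other genes of the pathway were described by 4 further lists. Over all loci 3.91% were more than 2-fold higher with PMA in 427 cells and 3.51% in SP2bKD cells. The shares that were lower were 4.67% and 5.69%. Of 12 IkB kinases and upstream kinases, all at 1 FPKM or more, 1 was more than 2-fold higher with PMA in each line and 0 were lower, with medians of -0.07 and -0.09. That gene was Ikbke, an IkB-kinase-related enzyme, at 9.96 and 46.0 FPKM in 427 cells and 12.0 and 49.6 FPKM in SP2bKD cells. Ikbkg, the regulatory subunit of the kinase complex, had log2 changes of -0.59 and -0.80, and Tab1, a partner of the TAK1 kinase, -0.60 and -0.61.

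Of 18 adaptors and ubiquitin ligases 17 had a row and 14 reached 1 FPKM, with median PMA changes of 0.08 and 0.14. Past 2-fold higher were 2 of these in 427 cells and 1 in SP2bKD cells, against 3.91% and 3.51% of loci. Traf1, an adaptor of the TNF receptor family, was at 0.133 and 2.73 FPKM in 427 cells and 0.342 and 2.18 FPKM in SP2bKD cells. Bcl10, the partner of Malt1 downstream of protein kinase C, was at 23.0 and 50.2 FPKM, and at 25.5 and 43.0 FPKM. Traf3, which restrains the non-canonical arm, had log2 changes of 0.38 and 0.87.

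Of 18 further IkB-family proteins and negative regulators 16 reached 1 FPKM, with median PMA changes of 0.00 and -0.03. In each line 3 were more than 2-fold higher, against 3.91% and 3.51% of loci, and 1 was lower, against 4.67% and 5.69%. The 3 higher genes were Bcl3, a nuclear IkB protein, Tnip3, a partner of A20, and Zc3h12a, an RNase that degrades cytokine transcripts. Bcl3 was at 5.89 and 22.1 FPKM in 427 cells and 4.44 and 19.4 FPKM in SP2bKD cells, while Zc3h12a was at 6.55 and 24.7, and at 5.66 and 16.3 FPKM. Tnip3 had log2 changes of 2.14 and 2.29, from under 1 FPKM with DMSO. The lower gene, Pdlim2, a nuclear ubiquitin ligase for Rela, was outside the rule for named genes and is given after its values were seen, with log2 changes of -1.27 and -1.97.

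Of 10 receptors that feed into the pathway 8 reached 1 FPKM, with median PMA changes of 0.18 and 0.36. In each line 3 were more than 2-fold higher with PMA, against 3.91% and 3.51% of loci. The 3 were Tnfrsf12a, the TWEAK receptor, with log2 changes of 1.41 and 1.10, Tlr2, with 1.54 and 1.12, and Tnfrsf1b, the second TNF receptor, with 1.12 and 1.20. Tlr2 was low, at 0.685 FPKM with DMSO and 2.01 with PMA in 427 cells. Tnfrsf12a was by far the most abundant of the 3, at 121 FPKM with DMSO and 323 with PMA in 427 cells.

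The GFP-sorted cells differed from DMSO-treated SP2bKD cells before any EICD was added. In the GFP library 3 of 9 members (Relb, Nfkbia and Tnfaip3) were more than 2-fold higher, against 3.56% of 10687 loci, and 0 were lower, against 4.14%. The median was 0.32 over the members and -0.08 over all loci. Tnfaip3 stood at 27.8 FPKM in the GFP library and 9.99 with DMSO, a log2 ratio of 1.48 (1.39 to 1.56). Nfkbia stood at 48.6 and 20.2 FPKM, a ratio of 1.27 (1.15 to 1.39), and Relb at 8.69 and 3.93 FPKM, a ratio of 1.14 (0.95 to 1.34) that was 0.97 with 1 FPKM added to both libraries. The remaining 6 ran from -0.19 for Nfkb1 to 0.44 for Nfkbib, so that Nfkb1, past 2-fold with PMA, was not higher here. Transfection, sorting and the serum-free period before DMSO cannot be told apart in this comparison.

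Immediate early genes moved with these libraries. All 8 listed (Fos, Fosb, Jun, Junb, Egr1, Atf3, Ier2 and Dusp1) were more than 2-fold higher in the GFP library than with DMSO, against 3.56% of loci. Fos and Fosb were under 1 FPKM with DMSO. With EICD against GFP 1 of the 8 (Atf3) was more than 2-fold higher, against 3.55% of loci. The summed level of the 8 was 89.1 FPKM with DMSO and 137 FPKM with PMA in SP2bKD cells, against 669 FPKM after GFP and 1179 FPKM after EICD transfection. Fos alone stood at 0.823, 2.54, 148 and 244 FPKM in these libraries. Their part in the values of the family was not tested.

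EICD was compared with GFP alone in sorted SP2bKD-10 cells. All 9 members were above 0, as were 58.2% of loci, and 2 of 9 (Relb and Nfkbia) were more than 2-fold higher, against 3.55% of 10687 loci. None was more than 2-fold lower, against 0.524%. The median was 0.41 over the members and 0.07 over all loci. With a minimum of 10 FPKM, 1.62% of 7616 loci were more than 2-fold higher, and the count of members was again 2.

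Relb stood at 8.69 FPKM with GFP and 22.5 with EICD, a 2.59-fold higher level and a log2 ratio of 1.37 (1.25 to 1.50). Nfkbia stood at 48.6 and 112 FPKM, a 2.31-fold higher level and a ratio of 1.21 (1.13 to 1.29), and it was the highest member in the EICD library. Tnfaip3, at 27.8 and 53.3 FPKM, did not reach 2-fold, with a ratio of 0.94 (0.89 to 0.99). The EICD library was thus above all others for Nfkbia, and it lay between the PMA libraries for Relb and for Tnfaip3.

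The other members had smaller ratios. Nfkb2 stood at 47.9 and 71.8 FPKM, a log2 ratio of 0.58 (0.53 to 0.64), and Rel at 12.3 and 16.3 FPKM, a ratio of 0.41 (0.33 to 0.48). The EICD library thus held the highest Rel value of the 6. Nfkb1 at 0.34, Rela at 0.29 and Nfkbie at 0.18 followed, and Nfkbib was at 0.03 (-0.09 to 0.15, below 0 with libraries scaled to the same median or sum), with 21.7 FPKM with GFP and 22.2 with EICD.

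**Figure D5:**
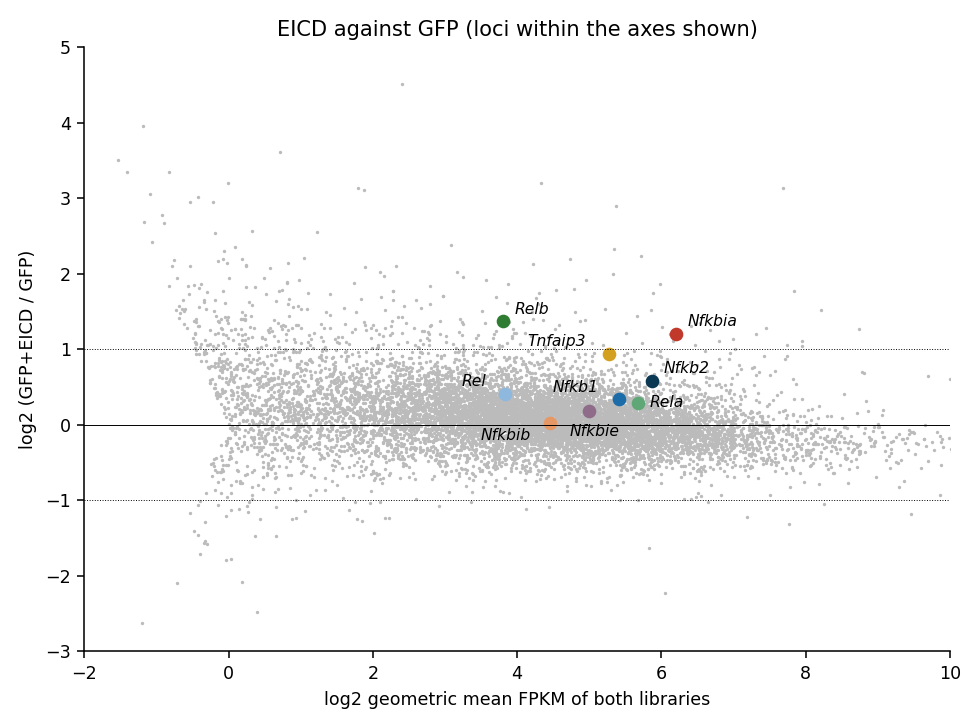
log2 ratio of GFP plus EICD to GFP (y axis) against the log2 geometric mean FPKM of both libraries (x axis) for loci with a symbol (grey) and 9 members (coloured), with 2-fold dotted. Relb at 1.37 and Nfkbia at 1.21 lie above the 2-fold line, and Tnfaip3 at 0.94 lies just below it.

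Within the family the EICD library differed from the PMA libraries in its balance. Nfkbia made up 29.0% of the summed FPKM of Nfkbia, Nfkbib and Nfkbie in SP2bKD cells with DMSO, 31.0% with PMA, 48.4% with GFP and 66.6% with EICD. Nfkbia relative to Rela stood at 0.458, 0.722, 1.05 and 2.00 in the same libraries, and the 3 inhibitors over the 5 subunits at 0.500, 0.424, 0.656 and 0.785. The inhibitor sums take in Slc35b2 through the Nfkbie locus, and the Nfkbib locus overlaps Sirt2. Nfkb1 relative to Nfkb2 was 1.46 in 427 cells with DMSO and 0.665 in the EICD library, its extremes over the 6 libraries. Among the wider lists, EICD left 10 of 22 target genes past 2-fold higher and 1 past 2-fold lower, against 3.55% and 0.524% of loci, with a median of 0.45, or 0.43 over the 21 genes above 0 in both libraries. With equal sums 4 of 15 targets were higher and 1 lower, against 1.18% and 0.484% of loci. Of the 10, the chemokine genes Cxcl1, Cxcl2, Cxcl5, Cxcl10, Ccl2 and Ccl20 are of the kind described from these data before the list was written. Cxcl10 and, beyond the chemokines, Tnf, Csf3, Saa3 and Nos2 were under 1 FPKM with GFP and met the minimum only with EICD. The lower target, Ccl5, met it only with GFP. None of the 12 kinases or of the 13 adaptors at 1 FPKM was past 2-fold (medians 0.11 and 0.16), whereas 2 of 16 further regulators were higher (Bcl3 and Zc3h12a, at 1.05 and 1.04) and 1 of 8 receptors was (Tnfrsf1b, at 1.02).

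The comparisons share libraries. The GFP library is the reference for EICD and the numerator against DMSO, and the DMSO-treated SP2bKD library serves in 3 comparisons, so a deviation of either library would move several values at once. The levels in each library, given above, are the measurements themselves.

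The pattern of each member over the 6 libraries was set beside that of 11062 loci with a symbol, by the root mean square difference of log2 levels centred on their mean. Nearest to Relb were Tnfaip3 (0.24), Dusp5 (0.25) and Creb5 (0.29). Tnfaip3 lay nearest to Creb5 (0.13), Cd80 (0.14), which encodes a costimulatory ligand, and Hivep2 (0.17). Nearest to Nfkbia were Ceacam19 (0.15), Apobec1 (0.23) and Junb (0.23), an AP-1 subunit. Relb had the most distant nearest locus of the 9 members.

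Nfkb1 lay nearest to Rsbn1 (0.08), Ripk2 (0.09), a kinase of the NOD receptors, and Icam1 (0.10), an adhesion molecule of the target list. Nfkb2 lay nearest to Zfpm2 (0.14), Mill1 (0.15) and Slc39a14 (0.18), a zinc transporter. The flat profile of Rela was matched by Nop14 (0.03), Zfp184 (0.06) and Eif1ad (0.06). Rel, which was not flat, lay nearest to Prickle3 (0.04), Mink1 (0.06) and Atp2b4 (0.07). Nfkbib lay nearest to Otud4 (0.03), Gar1 (0.05) and Mtmr10 (0.06), and Nfkbie to Cdk17 (0.09), Spata5 (0.09) and Fam208b (0.09). Between members, the closest pairs were Nfkb1 with Nfkbie, Relb with Tnfaip3 and Nfkbib with Nfkbie, each at 0.24.

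Nfkbiz, the gene of the nuclear IkB zeta, lies at 55811375 to 55838899 on the minus strand of chromosome 16 (GRCm38). A single assembled locus, 55811375 to 55895407 and named for Nxpe3, covers it together with that neighbour. The locus stood at 19.6 and 23.1 FPKM with DMSO and PMA in 427 cells, 17.6 and 21.4 FPKM in SP2bKD cells, 68.7 FPKM in the GFP library and 111 FPKM in the EICD library. Its log2 change was 0.24 and 0.29 with PMA, 1.97 (1.91 to 2.03) in GFP-sorted against DMSO-treated cells and 0.69 (0.65 to 0.72) with EICD. The GFP-sorted libraries were thus well above the other 4. How much of this comes from Nfkbiz and how much from Nxpe3 cannot be told apart.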

How the data were processed

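The 6 conditions of mouse 427 cells were each sequenced as 1 paired-end library from poly(A) RNA. Per the labels and the study's methods, the authors aligned reads with TopHat2 2.1.1 and computed FPKM with Cufflinks 2.1.1 and Cuffdiff 2.1.1, and the processing notes also name STAR 2.4.0b. They deposited 1 FPKM value per locus on GRCm38, with models that join annotated and newly assembled isoforms, so a locus can hold more than 1 gene.

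From the deposited FPKM, log2 ratios were formed after adding 0.01 to both libraries, over loci with a symbol and 1 FPKM or more in at least 1 library compared. More than 2-fold is the call. Depth was estimated from the steps of low FPKM among single-transcript genes over 2500 bases, with 200 bases taken off each transcript. The simulated data on which this was tested used the same lengths and deduction. They therefore cannot show whether these hold for the deposited FPKM. Fragments of a gene were derived from its longest annotated transcript, while assembled models can be shorter or longer, so they are rough. Counting intervals are 95% intervals and are too narrow where fragments are overestimated.

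The members and the gene lists were chosen with earlier results of these data known. All members are named, with the 3 loci nearest in pattern to each and, from each pathway list (kinases, adaptors, further regulators, targets, receptors), the 3 genes with the largest mean PMA change. Genes outside the rule are said to be so or are counts by list, with markers and immediate early genes given as context. The alternatives added 0.1 or 1 FPKM, scaled libraries to an equal upper quartile, median or sum of 1000000, used minima of 0.1 or 10 FPKM, or summed rows per symbol. Python 3.11.15, NumPy 2.4.6, pandas 2.3.3, SciPy 1.17.1 and matplotlib 3.10.9 were used.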

Additional observations from a re-analysis of the deposited data

Results flagged for a closer look

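Relb was lower in SP2bKD than in 427 cells with DMSO, at a log2 ratio of -0.14, and higher with PMA, at 0.10, a change of sign between the treatments. With equal upper quartiles Nfkb1 changed sign too, from -0.11 to 0.0026, and with equal sums Relb did not, at 0.81 and 1.34. The difference was not tested, and the counting interval with DMSO ran from -0.36 to 0.07.

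The locus that spans Nfkbiz and Nxpe3 was outside the counts of members and stood above its reference library by a log2 ratio of 1.97 in the GFP library against DMSO-treated SP2bKD cells and by 0.69 with EICD against GFP.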

How the results depend on the processing

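Of 70 counts of members recomputed under the alternatives, 62 equalled the count given and 68 were within 1.5 times of it. The exceptions came from scaling to an FPKM sum of 1000000, where 4 of 8 members with DMSO and 7 of 9 with PMA were more than 2-fold higher in SP2bKD than in 427 cells. Over all loci 51.8% of 8434 with DMSO and 83.6% of 8123 with PMA were then more than 2-fold higher. The 10 highest loci held 85.6% to 94.2% of the FPKM sum in each library, and the cause was not tested. The medians with DMSO and PMA were then 0.89 and 1.34, and those of all loci 1.01 and 1.26. The median PMA change in 427 cells was 1.10 with equal upper quartiles, 1.24 with equal medians, 0.90 with equal sums, 1.24 without Nfkbie and 0.97 with the locus that spans Nfkbiz. The median with EICD was 0.32 with equal medians, 0.22 with equal sums, and 0.50 both without Nfkbie and with that locus. The last pair of alternatives, and the scalings of the target list, were chosen after seeing the data. Of 378 single-gene values, 309 stayed inside the counting interval, 15 crossed 2-fold and 14 had the opposite sign. None of the values past 2-fold in the report turned sign, while Nfkb1 and Nfkbib, SP2bKD against 427 with PMA, went from below 0 to past 2-fold higher with equal sums (1.23 and 1.06). No paired analysis was possible because each condition has 1 library. Counting error is small for most members, and the spread between cultures is unknown.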
